A study of Arabidopsis thaliana with 8 samples.

Results

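Among the protein-coding genes of Arabidopsis thaliana measured in inflorescences, 17 were higher in both genotypes that lack functional DDM1 than in the wild type. They were chosen on measured values. A gene was taken when the means of ddm1-2 rdr6-15 and of ddm1-2 each lay at least 1 log2 unit above the Col-0 mean, and when all 4 of those arrays lay above both Col-0 arrays and above rdr6-15 replicate 2. Loci in the gene-number blocks around the centromeres, plastid loci and 5 loci described by name elsewhere in the series (AT1G58025, AT1G59930, AT5G26270, AT2G15560 and AT4G29200) were left out. Of 11783 coding probe sets with 1 gene outside these loci, out of 22746 probe sets tested in all, 0.144% met the rule. Over all probe sets, 0.8% lay at least 1 above Col-0 in the double mutant ddm1-2 rdr6-15 and 1.36% in ddm1-2.

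The arrays were Affymetrix ATH1, and the values are log2 signals summarised by the authors with RMA. Each of 4 genotypes had 2 biological replicates: the mutant combination ddm1-2 rdr6-15 (called the double mutant), ddm1-2, rdr6-15, and Col-0, the wild type. Flowers were of stages 9 to 12, plants grew in long days, tissue was pooled (n = 3), and 6 ug of total RNA went to an array. With 2 arrays per genotype, p-values measure the spread between replicate arrays pooled over the 4 genotypes. The rdr6-15 arrays thus enter every comparison. The level without signal, called control level here, was set at the highest mean (3.56) among 27 control probe sets for Bacillus transcripts. It rests on that highest control alone, as the second highest mean was 2.76 and the lowest 2.27. Array medians over all probe sets lay between 3.73 and 3.81. Replicate 1 of rdr6-15 stood apart: its correlation with the others across probe sets was 0.852 to 0.879, where the remaining 7 arrays had at least 0.944 with one another. It is the 1 array the rule did not use. DDM1 and RDR6 had no probe set listed with a gene of their own, so the labels were not checked on the mutated genes.

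DDM1 is a chromatin remodeller that lets DNA methylation be kept in heterochromatin, and its loss is best known for releasing transposons. Some ordinary genes also respond, either because methylated sequence lies in or beside them or through effects further downstream. RDR6 copies cleaved or aberrant transcripts into the double-stranded precursors of secondary small interfering RNAs, which can act on transcripts released in ddm1 mutants.

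The 17 genes are each measured by 1 probe set under the rule. For 12 of them the locus identifier is the only name in the annotation. Those with a name are SQN (AT2G15790), RXF26 (AT1G58430), scpl47 (AT5G22980), SBT1.3 (AT5G51750) and BGLU44 (AT3G18080). The probe sets of AT1G32010 and AT5G15690 are of a type shared by related sequences, so their signal cannot be assigned to these loci alone. All values against Col-0 below were used to choose the genes and are given as a description. Median differences from Col-0 were 1.52 in the double mutant and 1.71 in ddm1-2, with ranges of 1.04 to 2.89 and of 1.03 to 3.14. Over all probe sets the medians were 0.02 and -0.01. Both comparisons share the Col-0 arrays. The smaller of a gene's 2 differences was larger than its widest gap between replicates of the double mutant, ddm1-2 or Col-0 for 15 of the 17 (16.4% of all probe sets). The exceptions were SQN and BGLU44. The rule asked for differences of at least 1 and for ddm1 arrays above both Col-0 arrays, so nothing is read from this count.

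**Figure D1:**
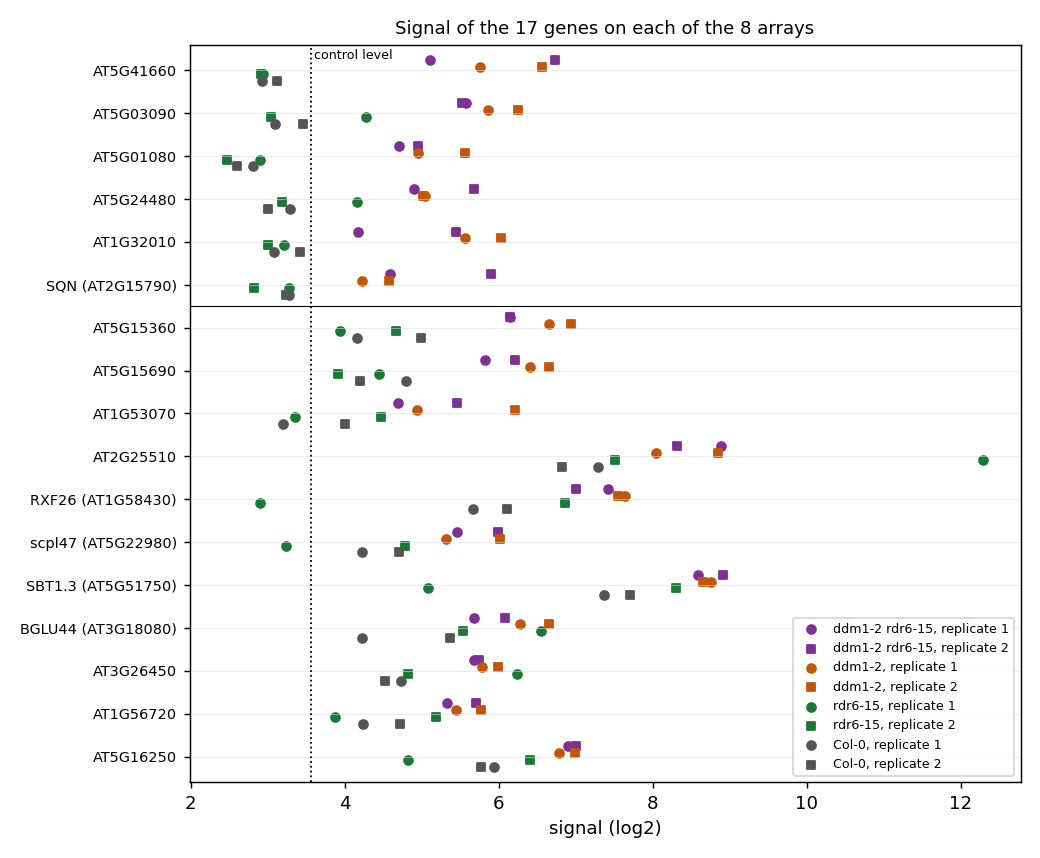
Log2 signal (x axis) of the 17 genes (rows) on each array, coloured by genotype, with circles for replicate 1 and squares for replicate 2; the dotted line is control level (3.56). The 6 genes above the horizontal line had a Col-0 mean at control level. For all 17 genes the 4 arrays of the double mutant and ddm1-2 lie to the right of both Col-0 arrays.

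Of the 17, 6 had a Col-0 mean at control level, as did 46.5% of all probe sets. Taken at that level, their differences are lower limits. The split depends on it: of the 6, only AT5G01080 had a Col-0 mean (2.70) below the second highest control mean of 2.76. The signal of AT5G41660 was 5.10 and 6.73 in the double mutant, 5.76 and 6.56 in ddm1-2, 2.94 and 2.91 in rdr6-15, and 2.93 and 3.12 in Col-0. All arrays with DDM1 were at control level, and the double mutant's replicates lay 1.63 apart. AT5G41660 had the largest differences of the 17, at least 2.89 in the double mutant and 3.14 in ddm1-2, with means of 5.92 ± 1.15 and 6.16 ± 0.57 against 3.02 ± 0.13 in Col-0 (SD, n = 2 each).

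For AT5G03090, arrays read 5.57 and 5.52 in the double mutant, 5.86 and 6.26 in ddm1-2, 4.27 and 3.04 in rdr6-15, and 3.10 and 3.46 in Col-0. Its differences were at least 2.27 in the double mutant and 2.78 in ddm1-2. Here rdr6-15 replicate 1 lay above control level and above both Col-0 arrays, yet below all 4 arrays of the ddm1 genotypes. AT5G01080 had 4.70 and 4.95 in the double mutant, 4.95 and 5.56 in ddm1-2, 2.90 and 2.48 in rdr6-15, and 2.80 and 2.60 in Col-0. Every array with DDM1 was at control level, and the differences were at least 2.13 and 2.55. AT5G24480 gave 4.90 and 5.68 in the double mutant, 5.04 and 5.01 in ddm1-2, 4.15 and 3.19 in rdr6-15, and 3.28 and 3.01 in Col-0. As for AT5G03090, replicate 1 of rdr6-15 was the 1 array with DDM1 above control level.

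AT1G32010, with a shared probe set, showed 4.18 and 5.44 in the double mutant, 5.57 and 6.03 in ddm1-2, 3.22 and 3.00 in rdr6-15, and 3.08 and 3.42 in Col-0. Both double mutant arrays lay below both ddm1-2 arrays. SQN (SQUINT) encodes cyclophilin 40, a protein-folding enzyme that promotes the activity of AGO1, the main effector of plant microRNAs. SQN read 4.59 and 5.90 in the double mutant, 4.22 and 4.58 in ddm1-2, 3.28 and 2.82 in rdr6-15, and 3.27 and 3.24 in Col-0. It is the 1 gene of the 17 whose double mutant arrays both lay above both ddm1-2 arrays. The gene has a second probe set, which was at control level on all 8 arrays, between 2.59 and 2.71 in the double mutant, 2.52 and 2.63 in ddm1-2, 2.20 and 2.30 in rdr6-15, and 2.21 and 2.27 in Col-0. It gives no size for a difference, so the values of SQN rest on 1 of its 2 probe sets.

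The other 11 genes had a Col-0 mean above control level. Among those with a named product, RXF26, a GDSL-type esterase or lipase, had 7.42 and 7.01 in the double mutant, 7.65 and 7.54 in ddm1-2, 2.90 and 6.86 in rdr6-15, and 5.66 and 6.11 in Col-0. The rdr6-15 replicates of RXF26 were 1 at control level and 1 close to the double mutant. SBT1.3, a subtilase (a secreted serine protease), read 8.59 and 8.92 in the double mutant, 8.76 and 8.65 in ddm1-2, 5.08 and 8.31 in rdr6-15, and 7.36 and 7.70 in Col-0. Its pattern over the arrays was like that of RXF26, with rdr6-15 replicate 1 lowest of all. The serine carboxypeptidase-like gene scpl47 had 5.46 and 5.99 in the double mutant, 5.31 and 6.01 in ddm1-2, 3.24 and 4.78 in rdr6-15, and 4.22 and 4.70 in Col-0. BGLU44, a beta-glucosidase, had 5.68 and 6.08 in the double mutant, 6.27 and 6.65 in ddm1-2, 6.54 and 5.53 in rdr6-15, and 4.22 and 5.36 in Col-0. The Col-0 replicates of BGLU44 lay 1.14 apart, more than its difference of 1.09 in the double mutant.

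The largest differences in this class belonged to AT5G15360, with 6.14 and 6.15 in the double mutant, 6.65 and 6.94 in ddm1-2, 3.94 and 4.67 in rdr6-15, and 4.16 and 4.99 in Col-0. AT5G15690, with a shared probe set, had 5.82 and 6.22 in the double mutant, 6.40 and 6.66 in ddm1-2, 4.44 and 3.92 in rdr6-15, and 4.80 and 4.20 in Col-0. In both genes the genotypes with DDM1 overlapped each other. AT1G53070 read 4.69 and 5.46 in the double mutant, 4.93 and 6.21 in ddm1-2, 3.35 and 4.47 in rdr6-15, and 3.19 and 4.0 in Col-0. Its Col-0 mean was barely above control level, with 1 of the 2 arrays below it, and 0.22 separated its lowest ddm1 array from rdr6-15 replicate 2. AT2G25510, the gene with the highest signal on any array, had 8.89 and 8.31 in the double mutant, 8.05 and 8.85 in ddm1-2, 12.29 and 7.51 in rdr6-15, and 7.28 and 6.82 in Col-0. Its value on rdr6-15 replicate 1 exceeded every other array by more than the whole range of the rest.

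The 3 genes just inside the threshold were AT3G26450, AT1G56720 and AT5G16250. Their differences from Col-0 were 1.07, 1.04 and 1.09 in the double mutant and 1.25, 1.13 and 1.03 in ddm1-2. AT3G26450 had 5.67 and 5.74 in the double mutant, 5.78 and 5.99 in ddm1-2, 6.24 and 4.82 in rdr6-15, and 4.74 and 4.53 in Col-0. AT1G56720 read 5.33 and 5.71 in the double mutant, 5.44 and 5.77 in ddm1-2, 3.87 and 5.18 in rdr6-15, and 4.24 and 4.71 in Col-0. On rdr6-15 replicate 1, AT3G26450 was above and AT1G56720 below all 4 ddm1 arrays. AT5G16250 had 6.90 and 7.0 in the double mutant, 6.78 and 7.0 in ddm1-2, 4.82 and 6.40 in rdr6-15, and 5.94 and 5.77 in Col-0. The 3 genes just outside were AT1G80640 (short of the threshold before rounding), AT5G49180 and AT4G17245, with 1.0, 1.32 and 0.97 in the double mutant and 1.12, 0.99 and 1.30 in ddm1-2.

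The rule's condition on rdr6-15 took away many genes. At least 1 log2 unit above Col-0 in both ddm1 genotypes were 30 coding probe sets outside the excluded loci, and for all 30 the 4 ddm1 arrays lay above both Col-0 arrays. The condition on rdr6-15 replicate 2 removed 13 of them. The exclusions by locus removed a further 6 genes that met the measured conditions, and 5 of these had differences of 4.35 to 7.53 in the double mutant and of 5.47 to 7.98 in ddm1-2. The remaining one, AT5G28560, had 1.34 and 1.55, within the range of the 17. The same conditions with the signs turned, for genes lower in both ddm1 genotypes, were met by 174 coding probe sets, against the 17. Annotated pseudogenes, the class that holds transposon loci, met the measured conditions in 33 of 383 probe sets outside the excluded loci, or 8.62%.

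Whether the raised level of the 17 genes differed with and without RDR6 in the ddm1-2 background was asked by the double mutant against ddm1-2. The rule used these arrays, each against Col-0, and so restricts this difference without using it directly. Of the coding probe sets considered, 48 lay at least 1 above Col-0 in the double mutant, 89 in ddm1-2 and 30 in both. Genes raised that far in only 1 of these genotypes were left out, so the values below hold for the chosen genes alone. The median difference was -0.25, with a range of -0.99 to 0.84, and over all probe sets it was 0.02. The double mutant had the lower mean for 11 of the 17, as for 45.7% of the coding probe sets considered. Both double mutant arrays lay below both ddm1-2 arrays for 7 genes (16.6% of those considered) and above them for SQN alone (20.9%). Means at least 1 apart were found for 0 of the 17 and for 0.399% of those considered. Asking for at least 1 above Col-0 in both genotypes limits how far apart their means can lie. Nothing is therefore read from this count. The 7 were AT5G03090, AT5G15360, AT1G32010, AT5G15690, RXF26, BGLU44 and AT3G26450.

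By limma, 0 of the 17 passed an adjusted p of 0.05, where 0.0572% of all probe sets did, and 1 had an unadjusted p under 0.05 (2.71% of all probe sets). That gene was AT1G32010, with a difference of -0.99 (SE 0.41, 95% interval -1.95 to -0.02), which did not pass after adjustment. SQN differed by 0.84 (SE 0.41, 95% interval -0.14 to 1.83). For AT5G01080 the interval was the narrowest, from -1.05 to 0.19 around -0.43. For AT2G25510 it was the widest, from -3.02 to 3.32 around 0.15. No gene's interval lay wholly within 1 log2 unit of 0, as 77.4% of all intervals did. For 10 genes the interval ended below 1, so that a difference of 1 or more upward lay outside it. For SQN and AT5G24480 it began above -1, and for 5 genes it reached both -1 and 1.

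The wide intervals moved with the gap between the rdr6-15 replicates, which enters the shared estimate of spread. Leaving out either rdr6-15 array takes that gap away and gives the same fit for this comparison. Without rdr6-15 replicate 1 the difference of each gene was the same by construction. The interval of AT2G25510 then ran from -0.53 to 0.84, that of RXF26 from -0.85 to 0.09 and that of SBT1.3 from -0.37 to 0.48. Intervals of 10 of the 17 genes then lay within 1 log2 unit of 0, as did 93.7% of all. Again 0 passed (lowest adjusted p = 0.559 in limma), and 4 had an unadjusted p under 0.05, where 7.84% of all probe sets did. These were AT5G03090, AT5G15360 and AT1G32010, lower in the double mutant by mean, and SQN, higher. The median difference rested partly on 1 array: without ddm1-2 replicate 2 it was -0.00092.

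**Figure D2:**
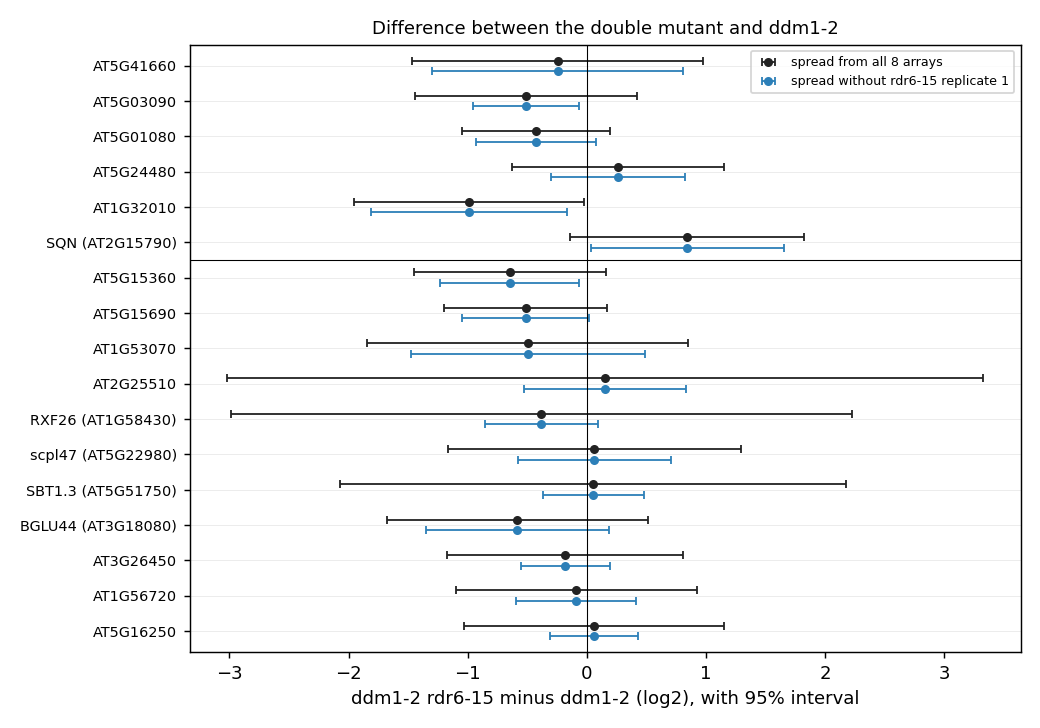
Difference between the double mutant and ddm1-2 (x axis, log2) for each of the 17 genes, with 95% intervals from limma, in black with the spread from all 8 arrays and in blue without rdr6-15 replicate 1. AT1G32010 (-0.99) and SQN (0.84) lie at the ends, and the interval of AT2G25510 shrinks most when that array is left out.

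The rdr6-15 arrays are described by the level of the genes in Col-0. For the 6 genes at control level in Col-0, rdr6-15 replicate 2 lay below both Col-0 arrays in 5 and between them in 1, with a median difference of -0.23 from the Col-0 mean (range -0.43 to 0.04). Among all probe sets at control level in Col-0, 40.4% lay below both, 34.1% between and 25.5% above. For the 11 genes above control level in Col-0, replicate 2 lay above both Col-0 arrays in 9, although the rule capped it at the ddm1 arrays, and its median difference was 0.55 (range -0.58 to 0.98). Of all probe sets above control level in Col-0, 46.6% lay above both, 22.4% between and 31% below. The exceptions were AT5G15360, between the Col-0 arrays, and AT5G15690, below them. These comparisons share the Col-0 arrays on which the genes were chosen as low, and were not tested. The 9 genes were AT1G53070, AT2G25510, RXF26, scpl47, SBT1.3, BGLU44, AT3G26450, AT1G56720 and AT5G16250.

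On rdr6-15 replicate 1, which the rule did not use, 14 of the 17 genes lay below all 4 ddm1 arrays, where 31% of all probe sets did. The genes were chosen for high values on those 4 arrays, so nothing is read from this count. BGLU44 lay among the 4 arrays (31.9% of all), and AT2G25510 and AT3G26450 lay above them (37.1% of all). Against Col-0, the 6 genes at control level differed on this array by -0.08 to 1.01, with a median of 0.11, with 4 above both Col-0 arrays, 2 between and 0 below. Among all probe sets at control level in Col-0 the shares were 54.9%, 25.6% and 19.5%. The other 11 ranged from -2.99 for RXF26 to 5.23 for AT2G25510, with 6 below both Col-0 arrays, 2 between and 3 above. Among all probe sets above control level in Col-0 the shares were 52.2%, 12.7% and 35.1%.

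**Figure D3:**
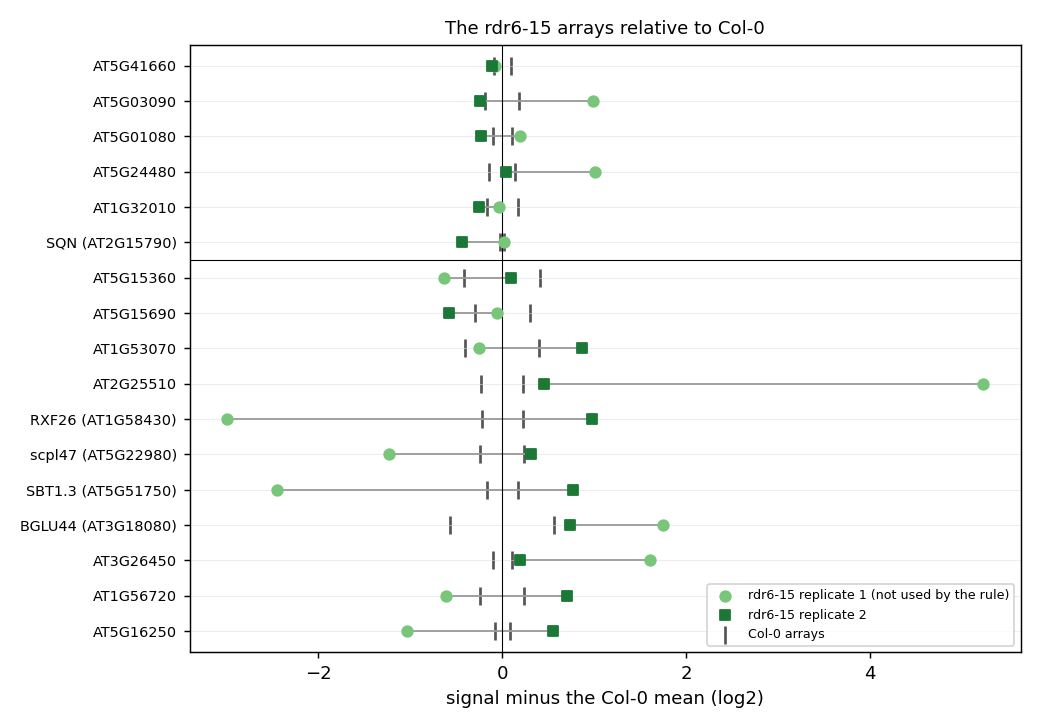
Signal of both rdr6-15 arrays minus the Col-0 mean (x axis, log2) for each of the 17 genes, with grey ticks for the Col-0 arrays; genes above the horizontal line were at control level in Col-0. Replicate 2 is not above the Col-0 arrays for any of the upper 6 genes and is above them for 9 of the lower 11, while replicate 1 spreads from -2.99 to 5.23.

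Markers of late pollen were lower by mean than in Col-0 in each mutant genotype, rdr6-15 included. Of 16 listed late pollen genes, 7 had a probe set listed with 1 gene, and MGH3 alone was at control level on all arrays. Their summed linear signal was 88.7 and 49.6 in the double mutant, 94.3 and 61.3 in ddm1-2, 57.7 and 173 in rdr6-15, and 308 and 454 in Col-0. Both Col-0 arrays were thus above all 6 mutant arrays. All 7 differed below 0 in each mutant, with medians of -1.68 in the double mutant, -1.55 in ddm1-2 and -1.15 in rdr6-15 against Col-0. ANX1, ANX2 and ACT12 were at control level on every array of the double mutant and ddm1-2. The medians are those of ANX2, so in these genotypes they are lower limits in size. By limma 0 were called lower, where 0.101%, 0.171% and 0.0044% of all probe sets were, and 6, 7 and 6 had an unadjusted p under 0.05, where 7.79%, 9.13% and 9.98% of all probe sets did. When rdr6-15 replicate 1 was left out, limma called 5 of the 7 lower in the double mutant and 5 in ddm1-2. Of all probe sets, 2.86% and 2.62% were called lower. This leaves 1 array of rdr6-15, so no count is given for that genotype and it cannot be compared with the others here. For the double mutant and ddm1-2 against Col-0, leaving out rdr6-15 replicate 2 instead gives the same fit. The part of these markers in the differences of the 17 genes was not tested. In whole inflorescences, fewer cells of a type and less RNA per cell cannot be told apart.

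**Figure D4:**
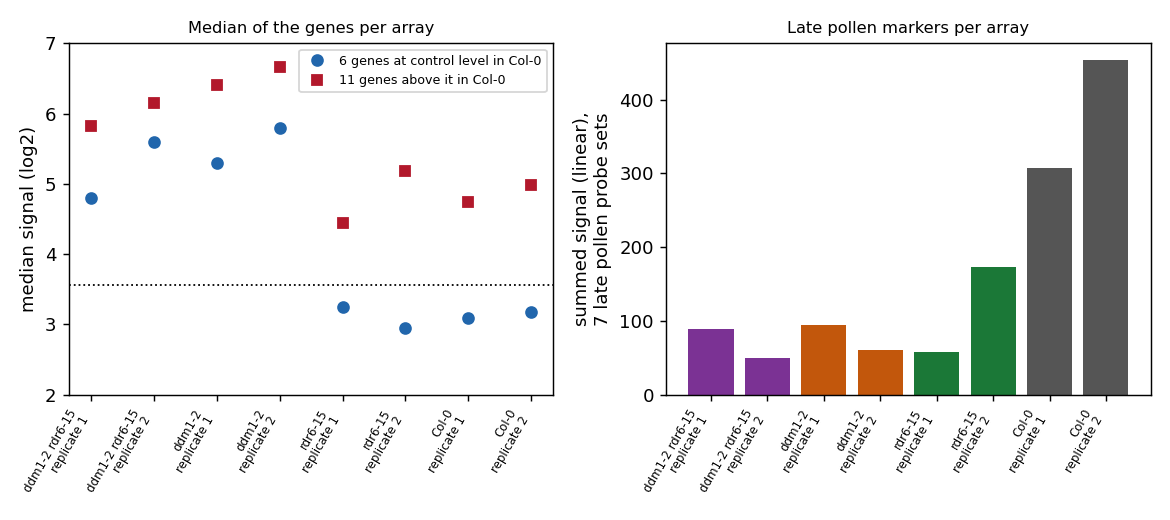
Left, median log2 signal per array of the 6 genes at control level in Col-0 (circles) and of the other 11 (squares), with control level dotted; right, summed linear signal of 7 late pollen probe sets per array, bars coloured by genotype. The medians are highest on the 4 arrays of the double mutant and ddm1-2, for which the genes were chosen. AT2G25510 and AT3G26450 are themselves highest on rdr6-15 replicate 1. The pollen sum is highest on the Col-0 arrays (308 and 454).

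Other marker lists could say little of the tissue. For floral organ identity 1 of 15 genes was matched, UFO, with 3.22 and 2.90 in the double mutant, 3.16 and 2.77 in ddm1-2, 3.68 and 3.01 in rdr6-15, and 3.45 and 3.26 in Col-0. UFO acts in young flower meristems, and 7 of its 8 values were at control level. Of 15 tapetum genes 2 were matched, A9 and AMS. A9 had 3.64 and 4.02 in the double mutant, 3.39 and 4.21 in ddm1-2, 2.62 and 4.43 in rdr6-15, and 3.31 and 2.60 in Col-0, close to control level and not called by limma. AMS was at control level throughout. For leaf photosynthesis, RCA was the 1 of 11 matched, at 11.76 to 12.38 on all arrays. The glucosinolate gene BCAT4 had 8.15 on rdr6-15 replicate 1 and at most 3.24 elsewhere. GSTU20, the other matched gene of that list, had 6.6 and 6.59 in the double mutant, 5.96 and 6.70 in ddm1-2, 8.72 and 6.49 in rdr6-15, and 4.85 and 5.17 in Col-0, and was not called by limma (adjusted p = 0.632 in the double mutant, 0.626 in ddm1-2 and 0.339 in rdr6-15 against Col-0). All mutant arrays of GSTU20 were above both Col-0 arrays. None of the seed storage genes was matched.

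None of the 17 genes was on the 7 pathway lists, which covered genes silenced by DNA methylation, the methylation and small RNA machineries, DNA damage, heat shock, salicylic acid and jasmonate. Of 99 listed genes 8 were matched, with 10 probe sets. QQS, an orphan gene silenced by methylation, was the 1 called, higher against Col-0 by 1.82 in the double mutant (adjusted p = 0.0344), 3.34 in ddm1-2 (adjusted p = 0.00128) and 2.90 in rdr6-15 (adjusted p = 0.0453, all by limma). Under 10 alternatives (the replicate number as a block, quantile normalization and each array left out), limma kept the call of QQS in 3 for the double mutant (adjusted p = 0.0021 to 0.351), all 10 for ddm1-2 (3.73e-05 to 0.0306) and 2 for rdr6-15 (4.16e-05 to 0.707). With the block it had adjusted p = 0.0919 in the double mutant and 0.203 in rdr6-15. Its locus, AT3G30720, lies in an excluded block. Over all probe sets 0.211%, 0.404% and 0.0044% were called higher in these comparisons. In the small RNA list, SE and AGO7 were not called.

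By locus name, 9 of the 17 genes lie on chromosome 5, or 52.9%, where 22.9% of the coding probe sets considered lie. Chromosome 1 holds 4, chromosomes 2 and 3 hold 2 each, and chromosome 4 holds 0, against 14.3% of those considered. The median number of coding genes to the nearest block was 1108 for the 17 and 1300 for the loci considered, a difference that was not tested. SQN was nearest, at 65 coding genes, and AT5G01080 farthest, at 2640.

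In the order of the TAIR10.1 annotation, 102 genes lie within 3 steps of a member, and 44 of them have a probe set listed with 1 gene. Their median difference from Col-0 was 0.02 in the double mutant and -0.04 in ddm1-2, and for 0 of the 44 did both differences reach 1. By limma 0 were called against Col-0 in the double mutant or in ddm1-2, where 0.312% and 0.576% of all probe sets were. At such shares 0 of 44 says little. An unadjusted p under 0.05 was found for 1 and 3 of the 44, and for 7.79% and 9.13% of all probe sets. The 17 themselves were chosen on these comparisons. Their 1 call in the double mutant and 3 in ddm1-2 are therefore not set against those of the neighbours. At control level on all 8 arrays were 22 of the 44, for which a difference carries no size. The largest differences were those of AT5G24490, next to AT5G24480, with 0.89 in the double mutant and 0.76 in ddm1-2 (adjusted p = 0.165 and 0.210 in limma). BGLU43, 2 steps from BGLU44, was among the 22.

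A pseudogene lay within 3 steps of 2 of the 17 genes, or 11.8%, and of 18.7% of the loci considered. The 2 were SQN and AT1G32010, both at control level in Col-0. SQN is followed by the pseudogenes AT2G15800, AT2G15810 and AT2G15815, of which AT2G15810 was measured. AT1G32010 has AT1G31983, AT1G31993 and AT1G32040 within 3 steps, of which AT1G32040 was measured. Both measured pseudogenes were at control level on all 8 arrays. The gene with the largest differences, AT5G41660, stands next to MIR319b, a microRNA gene without a probe set of its own here.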

How the data were processed

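Transcripts were measured on 8 ATH1 arrays, 2 for each of 4 genotypes, grouped by the labels. Each deposited log2 value is a probe set's signal, which the authors summarised with RMA per the submitters' processing notes. Its settings are not stated there. No scaling was added. Of 22810 probe sets, 64 controls were left out. Genes came from the platform annotation through their gene identifiers, and locus tags, biotypes and gene order from the TAIR10.1 table. Coordinates are left out because the arrays' build is not named.

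In R 4.3.3, limma 3.58.1 fitted genotype means over the 8 arrays (lmFit, eBayes; 4 residual degrees of freedom, prior 2.82), two-sided, with Benjamini-Hochberg adjustment over 22746 probe sets and a threshold of 0.05. The fit was also run on simulated data with independent arrays, none of which stood apart. The real arrays differ in this, so nothing is drawn from that run. The number of arrays limits the precision. The members, lists and comparisons were chosen with earlier results of these data known. All members were to be named, being fewer than 30. Alternatives were a replicate block, other normalizations, filters, variance models, thresholds and leaving out each array. The control level, the alternatives for QQS and the late pollen counts without rdr6-15 replicate 1 were chosen after the data were seen.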

Additional observations from a re-analysis of the deposited data

How the results depend on the processing

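The number of genes under the rule was 123 with a difference of at least 0.5, 7 with at least 1.5 and 30 without the condition on rdr6-15, all of which held or were held by the 17. Leaving out 1 array gave 13, without ddm1-2 replicate 2, to 29, without Col-0 replicate 2, and these shared 12 and 15 genes with the 17. Quantile normalization gave 18, sharing 16, and median centring gave the same 17. In the double mutant against ddm1-2, 0 of the 17 passed under every alternative run, and the median difference lay between -0.33 and -0.00092 when 1 array was left out. Over all probe sets that comparison called 13, against 1 with the replicate number as a block, 1 without shared probe sets, 29 with only the genotypes compared, 24 with a trended and robust variance, 38 with array weights, and 0 to 44 with 1 array left out (44 without either rdr6-15 array, 0 without ddm1-2 replicate 1, ddm1-2 replicate 2 or double mutant replicate 2). With the block, the double mutant against Col-0 called 39 in place of 71, and rdr6-15 against Col-0 0 in place of 2 (1 after quantile normalization). With 1 array left out, calls lay between 22 and 884 for the double mutant, 31 and 1084 for ddm1-2 and 0 and 5414 for rdr6-15, each against Col-0. The labels do not tie replicate numbers to a shared batch. Differences between replicates 1 and 2 correlated at 0.42 between the double mutant and ddm1-2 and at -0.06 to 0.15 between other genotypes. The main fit did not take the numbers as pairs. The block fits 1 replicate effect for all genotypes, so an effect shared by the double mutant and ddm1-2 alone was not modelled. The cause of these shifts was not tested.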

Other observations

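The 13 coding genes kept out by rdr6-15 replicate 2 alone were at least 1 log2 unit above Col-0 in both ddm1 genotypes. Among them are TOPII, a DNA topoisomerase, GSTU20, a glutathione transferase, and OTC, an enzyme of arginine synthesis. Their differences from Col-0 were at least 1.49 for TOPII, whose Col-0 mean was at control level, 1.59 and 1.03 in the double mutant and, in the same order, at least 1.5, 1.32 and 1.25 in ddm1-2. On rdr6-15 replicate 2 they had 4.64, 6.49 and 6.81, and on replicate 1 they had 3.36, 8.72 and 7.32. Replicate 2 lies above both Col-0 arrays for all 13 by the way they were kept out. AT5G62080 was at control level in Col-0, with differences of at least 3.44 in the double mutant and 1.86 in ddm1-2. These genes were picked out after their values were seen.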
